A study of Mus musculus with 24 samples.

Results

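The change of the transcriptome over 4 days of retinoic acid (RA) was described in control cells that received doxycycline, that is, in 6 of 24 RNA-seq libraries: 3 si-CTL libraries with rescue at day 0 and 3 at day 4. The members were taken from the sample titles alone. CGR8, a line of mouse embryonic stem cells (ESCs) grown without feeder cells, is the parent of the CGR8-RESCUE cells, a puromycin-selected pool in which a piggyBac construct carries the Rsl24d1 open reading frame under a doxycycline-inducible promoter. All 6 libraries are from cells transfected with a pool of non-targeting siRNA and treated with doxycycline, and their labels give the vector as RSL24D1_OE. Cells at day 0 were in serum with LIF, whereas cells at day 4 were in serum with 10 nM RA and, according to the methods, without LIF, although the design text names both LIF and RA. A change between the days therefore belongs to RA, to the loss of LIF and to time in culture together, and these cannot be told apart. The other 6 si-CTL libraries, 3 at each day with no rescue and no doxycycline, were used for comparison. Their labels name the vector empty_vector, whereas the methods describe CGR8-RESCUE cells without doxycycline. In this comparison the vector and the drug cannot be told apart. The 3 replicates of each group are given as independent experiments, and p-values measure only the spread between these samples.

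RA is a derivative of vitamin A that crosses membranes, is carried to the nucleus by the cellular binding protein CRABP2 and binds retinoic acid receptors (RARs). These sit on DNA as heterodimers with retinoid X receptors (RXRs). Ligand binding exchanges co-repressors for co-activators at RA response elements, and among the best known direct targets are Rarb, the degrading enzyme gene Cyp26a1, and the 3′ members of the Hox clusters. In ESCs, LIF acts through STAT3 to hold the naive pluripotent state, FGF4 and ERK push cells towards a formative epiblast state, and removal of LIF with addition of RA is a standard way to make cells leave pluripotency. In bulk libraries such as these, fewer cells of a type and less RNA per cell cannot be told apart.

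Levels are given in TPM, a share of all transcripts corrected for their length, and the deposited values are log2(TPM + 1). Read numbers are not kept in TPM, so the depth is unknown and no counting interval could be given. Among the 24 libraries no pair was identical (highest correlation 0.99116), and mitochondrial transcripts held 6.49 to 7.64% of TPM at day 0 and 7.86 to 9.36% at day 4 in the 6 libraries described. Of 54242 listed genes, 16447 reached a mean of 0.5 on the log2(TPM + 1) scale across the 24 libraries and were tested with limma. A gene was called upregulated or downregulated where the Benjamini-Hochberg adjusted p was below 0.01 and the change exceeded 1.8-fold, 0.848 on the log2 scale. Fold changes are log2 differences of log2(TPM + 1) with their standard error (SE), day 4 minus day 0, which understates the change of genes expressed at a low level.

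Rsl24d1 (chr9:73113426-73123333 on GRCm38), the 60S ribosome biogenesis factor carried by the inducible construct, stood at 158, 149.7 and 147 TPM at day 0 and 126, 114 and 114 TPM at day 4. The days did not overlap, and the level fell by less than the fold threshold (log2 fold change -0.36 ± 0.07, adjusted p = 1.5e-04). With no rescue, the same gene had 141 ± 6.08 TPM at day 0 and 97.9 ± 2.74 TPM at day 4 (SD, n = 3), and no difference in change between the 2 kinds of cells passed the test (0.17 ± 0.10, adjusted p = 0.19). Values of the endogenous gene and of the construct are added in these levels and cannot be told apart.

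The 2 days were far apart. Over all genes tested, the distance between libraries on the log2(TPM + 1) scale was 39.4 to 44.8 within day 0, 38.0 to 41.3 within day 4 and 91.2 to 98.3 between days, and the first principal component, with 77.7% of the variance, separated them. In all, 2559 genes (15.6% of those tested) passed both thresholds. Upregulated genes numbered 1767 (10.7%) and downregulated genes 792 (4.82%). The split depended on the scaling between libraries. With median of ratios scaling, which moves the median change of all genes from 0.12 to 0.00 on the log2 scale, 1364 genes (8.29%) were upregulated and 1072 (6.52%) downregulated. When a trend with transcript length was removed as well as the median, the numbers were 1277 (7.92%) and 1001 (6.21%). No call turned its direction, and 1207 upregulated and 753 downregulated genes were called under all 3 scalings. Complete separation of the 3 libraries of one day from those of the other was reached by 71.5% of all genes tested, so that separation alone says little of a gene. The number of detected genes also differed, with 13480 to 13710 genes at 1 TPM or more at day 0 and 14176 to 14214 at day 4.

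**Figure D1:**
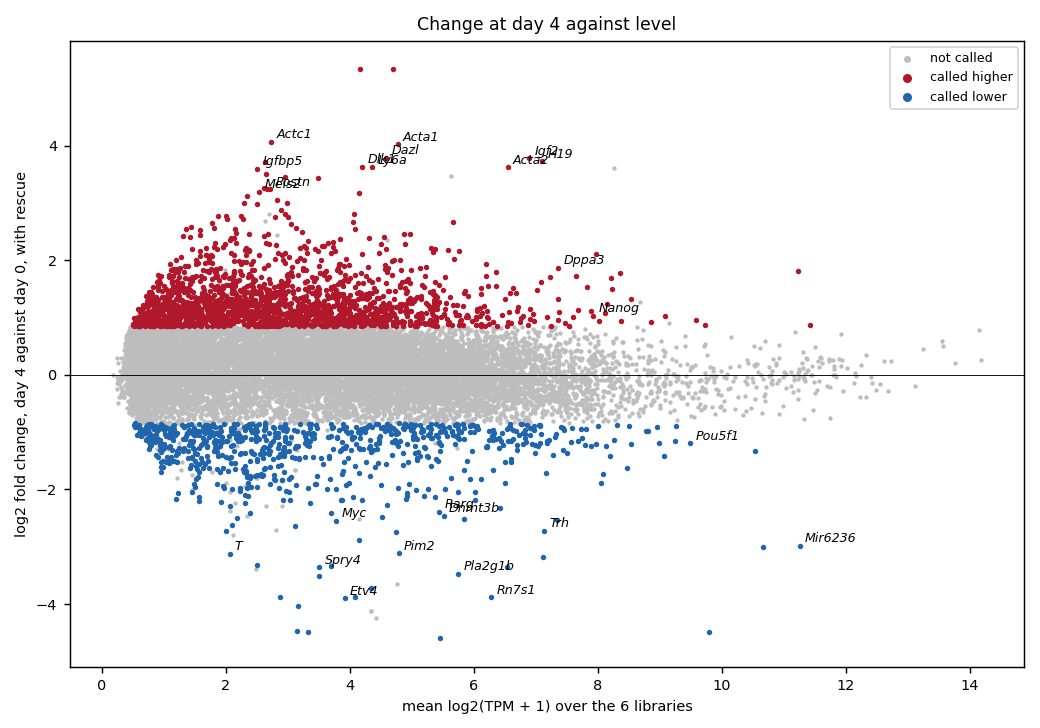
Log2 fold change of day 4 against day 0 (y axis) by mean log2(TPM + 1) over the 6 si-CTL libraries with rescue (x axis), 1 point per gene tested, genes listed at 0 in all 3 libraries of a day left out. Upregulated genes (red) outnumber downregulated ones (blue). Over all genes tested they are 1767 against 792, which counts 10 called genes at 0 at day 0 and 8 at 0 at day 4 that are not drawn. Pou5f1, at the high end of expression, lies among the blue points whereas Nanog lies among the red.

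The largest rises of protein-coding genes were led by muscle-type actins. Actc1, cardiac actin, went from 0.639, 0.502 and 0.711 TPM at day 0 to 27.5, 23.2 and 27.9 TPM at day 4 (log2 fold change 4.07 ± 0.12, adjusted p = 2.9e-16). Acta1, skeletal muscle actin, had 6.08, 5.93 and 5.30 TPM at day 0 and 105, 111 and 111 TPM at day 4 (log2 fold change 4.02 ± 0.08, adjusted p = 2.5e-18), and Acta2, smooth muscle actin, had 26.7, 28.4 and 22.2 TPM at day 0 and 325, 317 and 336 TPM at day 4 (3.62 ± 0.08). All 3 actins were far above their day 0 level in every library of day 4, although these paralogs are so alike that reads may be split between them with error. The next largest group held growth and imprinted genes, namely Igf2 (3.78 ± 0.08), Dlk1 (3.63 ± 0.06) and the insulin-like growth factor binding protein Igfbp5 (3.60 ± 0.09). It also held the matrix genes biglycan Bgn (3.51 ± 0.08), tenascin Tnc (3.25 ± 0.10) and periostin Postn (3.24 ± 0.08). Germ cell genes were represented by the RNA-binding protein Dazl (3.78 ± 0.10) and the meiotic cohesin Smc1b (3.24 ± 0.11). Aspa, an aspartoacylase (3.71 ± 0.10), the surface antigen Ly6a or Sca-1 (3.62 ± 0.09), the uncharacterised C130073F10Rik (3.43 ± 0.10) and the RA-responsive homeobox gene Meis2 (3.19 ± 0.09) complete the 15 largest rises. By amount of transcript, the largest rises among called genes were those of the pseudogene Gm29216 (1293 ± 263 TPM at day 0 and 4491 ± 220.4 TPM at day 4, SD, n = 3), H19 (3.72 ± 0.07), the chaperone Hsp90aa1 (0.86 ± 0.08), the interferon-induced transmembrane protein Ifitm1 (0.86 ± 0.06) and the helicase Eif4a2 (0.95 ± 0.04). The last 3 calls were lost with median of ratios scaling.

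The 15 largest falls of protein-coding genes were led by Etv4, and 2 of them, Etv4 and Spry4, were of the FGF and ERK list. Etv4, an ETS factor induced by ERK, went from 60.8, 59.0 and 52.8 TPM to 2.64, 2.80 and 3.32 TPM (log2 fold change -3.90 ± 0.08, adjusted p = 4.3e-18). Spry4, a feedback inhibitor of the same pathway, had 38.6, 34.7 and 33.4 TPM at day 0 and 2.77, 2.29 and 2.64 TPM at day 4 (log2 fold change -3.36 ± 0.10, adjusted p = 5.8e-16). Brachyury T, which marks the primitive streak, had 13.2, 12.1 and 9.01 TPM at day 0 and 0.224, 0.479 and 0.551 TPM at day 4 (-3.13 ± 0.15). Each of these genes was lower in every day 4 library than in any day 0 library, and for T the day 4 level was under 1 TPM. Other members of the 15 were the kinase Pim2 (-3.12 ± 0.06), the proto-oncogene Myc (-2.55 ± 0.07), the germ-stem-cell factor Bcl6b (-2.63 ± 0.07), thyrotropin-releasing hormone Trh (-2.73 ± 0.07), the TGF-beta family ligand Gdf1 (-2.72 ± 0.26), the phospholipase Pla2g1b (-3.48 ± 0.07), the pigment cell gene Pmel (-2.65 ± 0.09), Sprr2a2 (-3.87 ± 0.16), Hsd17b14 (-2.52 ± 0.05) and Bnipl (-2.50 ± 0.08). Less even between replicates were Brms1l, with 42.8, 97.1 and 21.4 TPM at day 4, and the mitochondrial leucyl-tRNA synthetase Lars2, with 237, 648 and 380.4 TPM at day 0. The spread of Lars2 at day 0 matched that of Mir6236 (3677, 12751 and 6819.6 TPM) and of the rRNA gene CT010467.1 (3042, 7647 and 4181 TPM), where replicate 2 was also the highest, and these had the largest falls in TPM (-2.98 and -3.01 on the log2 scale). Without that library the log2 changes were -2.16 for Lars2, -2.53 for Mir6236 and -2.65 for CT010467.1, all still called. The remaining large falls in TPM were those of n-R5s100, a 5S rRNA gene, of the translation factor Eif5a (2359 ± 45.6 TPM at day 0 and 934 ± 14.5 TPM at day 4, -1.34 ± 0.03) and of Pou5f1.

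Retinoid receptors changed unevenly. Rarg, the main RAR of ESCs, had 102, 102 and 92.9 TPM at day 0 and 17.5, 18.5 and 17.9 TPM at day 4 (log2 fold change -2.39 ± 0.05, adjusted p = 5.0e-18), and every day 0 library stood far above every day 4 library. Rara had 24.8, 24.3 and 21.0 TPM at day 0 and 13.1, 11.7 and 13.1 TPM at day 4 (-0.84 ± 0.12), just under the fold threshold, and was called downregulated with median of ratios scaling. Rarb had 0.127, 0.183 and 0.139 TPM at day 0 and 0.51, 0.529 and 0.457 TPM at day 4 (log2 fold change 0.38 ± 0.09, adjusted p = 0.0014), and although the days did not overlap the difference stayed under the fold threshold on a scale where 1 was added to such low values. With 0.1 added the change of Rarb was 1.27 and called (limma, adjusted p = 0.00097), so its call turned on that setting. Of the RXRs, Rxra rose (0.89 ± 0.10), a call lost with median of ratios scaling, Rxrg fell from 1.53, 0.931 and 1.23 TPM (-1.01 ± 0.11), and Rxrb had -0.07 ± 0.06. In all, 1 of 6 receptors was upregulated and 2 were downregulated (none and 3 with median of ratios scaling), with a median log2 change of -0.45 beside 0.12 for all genes.

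Among 15 tested genes of retinoid metabolism and transport, 5 were upregulated and 1 downregulated (3 and 1 with median of ratios scaling), with a median log2 change of 0.49. Cyp26b1, which degrades RA, had 0.125, 0.0567 and 0.064 TPM at day 0 and 1.72, 1.85 and 1.82 TPM at day 4 (log2 fold change 1.37 ± 0.08, adjusted p = 1.1e-11), and its paralog Cyp26c1 had 0.0468, 0.0393 and 0.0242 TPM at day 0 and 1.70, 1.31 and 1.22 TPM at day 4 (1.21 ± 0.08). Crabp2 rose from 12.2, 12.9 and 15.2 to 28.3, 32.9 and 32.3 TPM (1.16 ± 0.07). Cyp26a1, the family member most often used as a readout of RA, had 1.64, 1.37 and 2.15 TPM at day 0 and 1.48, 1.45 and 1.87 TPM at day 4 (log2 fold change -0.06 ± 0.12, adjusted p = 0.67), with the libraries of both days overlapping. Crabp1 (0.88 ± 0.07) and the retinol carrier Rbp4 (0.93 ± 0.09) were also upregulated, calls lost with median of ratios scaling. Aldh1a3, which makes RA, fell (-1.15 ± 0.11), while Aldh1a2 had 0.16 ± 0.10 and the RA-responsive genes Dhrs3 and Stra6 had 0.49 ± 0.13 and 0.33 ± 0.07, both under the fold threshold. With 0.1 added to TPM, Dhrs3 (0.88) and Stra6 (0.96) were called upregulated and 8 of the 15 genes were, whereas Cyp26a1 was not.

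The promoters of Rarb and Cyp26a1 are shown because both genes are textbook targets through a pair of receptor-binding hexamers and neither was called with 1 added to TPM. Windows of 300 bases (250 before to 50 after the start, RefSeq, GRCm38.p6) were searched on both strands for the hexamer AGGTCA, with G also allowed as the first letter and T as the third. A pair in the same orientation spaced by NNNNN was counted, an arrangement called DR5. Among 68 windows of 49 genes of the retinoid, RA-responsive and Hox lists that could be matched by symbol, 2 held it, those of Rarb (chr14:16575427-16575726, minus strand) and Cyp26a1 (chr19:37697558-37697857, plus strand), and of all 32851 windows 32 did (0.0974%). The match began 53 bases before the start of Rarb and 32 before that of Cyp26a1. Capitals mark the match, which in the Cyp26a1 window lies on the other strand and so reads TGAACT:
Rarb: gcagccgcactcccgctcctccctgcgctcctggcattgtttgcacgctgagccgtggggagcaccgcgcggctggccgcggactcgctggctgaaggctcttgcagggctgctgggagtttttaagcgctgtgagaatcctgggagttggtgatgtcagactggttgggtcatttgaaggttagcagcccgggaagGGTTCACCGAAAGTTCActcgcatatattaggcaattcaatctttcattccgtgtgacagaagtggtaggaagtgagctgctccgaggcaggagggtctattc
Cyp26a1: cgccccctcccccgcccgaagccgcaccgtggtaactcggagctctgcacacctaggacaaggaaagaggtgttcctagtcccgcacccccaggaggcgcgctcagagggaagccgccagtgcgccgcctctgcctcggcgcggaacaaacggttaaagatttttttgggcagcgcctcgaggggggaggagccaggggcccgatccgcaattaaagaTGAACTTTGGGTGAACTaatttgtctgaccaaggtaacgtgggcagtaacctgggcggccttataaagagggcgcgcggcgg
Across the genome 31 genes held such a window, of which 8 were tested and 1, the chemokine Ppbp (1.21 ± 0.18), was called. This share is close to the 15.6% of all genes tested that were called in either direction. A match describes letters in these windows and shows no binding.

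Other RA-responsive genes were mostly higher. Of 19 tested, 13 were upregulated (11 with median of ratios scaling) and none was downregulated, with a median log2 change of 1.16. Meis1, a homeobox partner of HOX proteins, had 0.461, 0.508 and 0.638 TPM at day 0 and 9.92, 8.90 and 9.62 TPM at day 4 (log2 fold change 2.77 ± 0.09, adjusted p = 8.7e-16), and Meis2 had 0.955, 0.808 and 0.99 TPM at day 0 and 16.8, 15.4 and 17.3 TPM at day 4. The orphan nuclear receptors Nr2f1 (COUP-TFI) and Nr2f2 (COUP-TFII) rose from near 0 at day 0 (0.0667, 0.0561 and 0.0616 TPM for Nr2f1 and 0.0725, 0.0541 and 0.074 TPM for Nr2f2) to 5.54, 4.46 and 5.62 TPM (2.54 ± 0.11) and 4.88, 4.28 and 5.05 TPM (2.42 ± 0.11). Stra8, which licenses meiosis in response to RA, had 3.52, 3.53 and 3.30 TPM at day 0 and 14.2, 21.2 and 15.0 TPM at day 4 (1.98 ± 0.11). Zfp503 (1.85 ± 0.07), Tgm2, a transglutaminase and long-known RA target (1.35 ± 0.08), the co-repressor Nrip1 (1.30 ± 0.13), Dlx3 (1.16 ± 0.10) and Tshz1 (1.14 ± 0.13) rose as well. Gata6 (0.88 ± 0.12) and Zfp703 (0.85 ± 0.09) passed the thresholds without but not with median of ratios scaling. Members that did not pass included Cdx1 (0.03 ± 0.09), Cdx2 (-0.30 ± 0.08), Bhlhe40 (-0.47 ± 0.08) and Pdgfra (0.60 ± 0.08), the last called with 0.1 added (1.79).

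Hox genes were near the limit of detection. Of 39 in the list, 10 passed the filter, 5 of these were upregulated and none was downregulated, also with median of ratios scaling, with a median log2 change of 0.84. The filter used the mean over all 24 libraries, so a gene near 0 at day 0 could pass only by being higher at day 4. Direction and median of such genes were thereby set in advance. With no filter, 39 were fitted, 5 were upregulated, 0 were downregulated and the median was 0.12. Among the upregulated members, Hoxb2 went from 0.148, 0.162 and 0.17 to 1.75, 1.68 and 2.00 TPM (1.28 ± 0.08), Hoxa3 reached 1.31, 1.42 and 1.57 TPM (1.08 ± 0.09), Hoxd8 1.03, 1.34 and 1.11 TPM (0.94 ± 0.09) and Hoxb4 1.12, 1.40 and 0.964 TPM (0.91 ± 0.08). The calls of Hoxd8 and Hoxb4 were lost with the length trend removed. Hoxa2 and Hoxa5, with 0.78 ± 0.08 and 0.68 ± 0.09, stayed under the fold threshold but were called with 0.1 added to TPM (2.74 and 2.53), Hoxb9 and Hoxd13 overlapped between days, and Hoxb1 was below the filter.

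Pluripotency factors fell in part. Of 15 core factors, 6 were downregulated and 1 upregulated (7 and 1 with median of ratios scaling), with a median log2 change of -0.59. Pou5f1, which encodes OCT4, had 1079, 1097 and 1085 TPM at day 0 and 507, 450.0 and 468 TPM at day 4 (log2 fold change -1.19 ± 0.04, adjusted p = 1.2e-15). Sox2, its partner, had 257, 249.7 and 239 TPM at day 0 and 185, 169 and 174 TPM at day 4 (-0.50 ± 0.05), lower in every day 4 library but within the fold threshold. Nanog moved the opposite way, with 175, 168 and 163 TPM at day 0 and 359, 331 and 345 TPM at day 4 (log2 fold change 1.03 ± 0.04, adjusted p = 1.1e-14), and each day 4 library held more than each day 0 library. Other downregulated members included Tdgf1, the Nodal co-receptor Cripto (-1.62 ± 0.03), Zscan10 (-1.50 ± 0.05), the let-7 regulator Lin28a (-1.22 ± 0.08) and L1td1 (-1.15 ± 0.08). Sall4 (-0.46 ± 0.14), Utf1 (-0.59 ± 0.05), Tcf7l1 (-0.59 ± 0.07) and Zfp281 (-0.04 ± 0.07) were not called, and Dppa2 (-0.85 ± 0.07) was called only with median of ratios scaling or the length trend removed.

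The naive factors split. Of 23 tested, 3 were upregulated and 4 downregulated, with a median of -0.31. Dppa3 or Stella, a marker of naive cells and germ cells, had 82.6, 81.6 and 90.7 TPM at day 0 and 315, 309 and 316 TPM at day 4 (log2 fold change 1.87 ± 0.06, adjusted p = 3.1e-15). Osteopontin Spp1 (1.53 ± 0.04) and the germ cell and naive regulator Prdm14 (1.04 ± 0.08) rose too. Zfp42 or Rex1 had 621, 607 and 572 TPM at day 0 and 522, 453 and 475 TPM at day 4 (-0.31 ± 0.05), Esrrb had 139, 129 and 119.9 TPM at day 0 and 110.2, 88.6 and 96.9 TPM at day 4 (-0.39 ± 0.08) and Klf4 had 22.8, 21.8 and 19.7 TPM at day 0 and 16.6, 14.5 and 15.9 TPM at day 4 (-0.43 ± 0.09), each lower in all day 4 libraries and none past the fold threshold. By contrast, Gbx2 (-1.45 ± 0.07), Nr0b1 (-1.34 ± 0.08), Nodal (-0.99 ± 0.05) and Klf5 (-0.95 ± 0.14) fell. Tfcp2l1 (0.32 ± 0.14) and Tbx3 (0.03 ± 0.10) overlapped between days, and Dppa5a, the most abundant of the list, had 3027 ± 183 TPM at day 0 and 4931 ± 141 TPM at day 4 (0.70 ± 0.07).

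**Figure D2:**
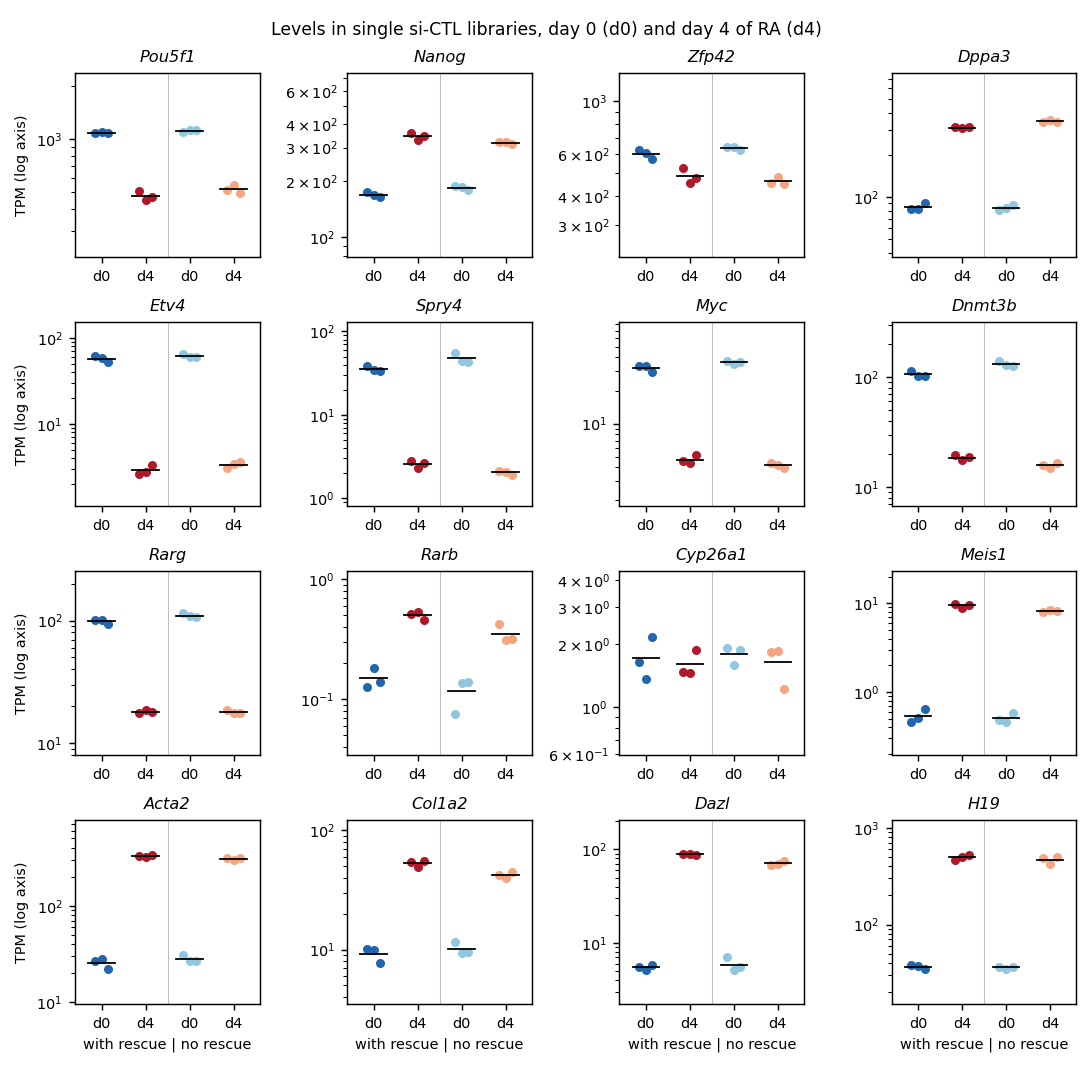
Level in TPM (log axis) of 16 genes in each si-CTL library, day 0 (d0) and day 4 (d4), with rescue on the left of each panel and no rescue on the right, points for libraries and bars for the mean of 3. Pou5f1, Etv4, Spry4, Myc, Dnmt3b and Rarg lie lower at day 4 in both kinds of cells, Nanog, Dppa3, Meis1, Acta2, Col1a2, Dazl and H19 lie higher, and Cyp26a1 overlaps between days.

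Markers of the formative and post-implantation epiblast fell in part. Of 15 markers tested, 7 were downregulated and 1 upregulated, with a median of -0.68. Dnmt3b, the de novo DNA methyltransferase of the epiblast, had 114, 102 and 103 TPM at day 0 and 19.4, 17.5 and 18.6 TPM at day 4 (log2 fold change -2.46 ± 0.09, adjusted p = 8.7e-15). Pou3f1 (-1.57 ± 0.06), Foxd3 (-1.91 ± 0.10), Fgf15 (-1.99 ± 0.08), Dnmt3a (-1.37 ± 0.10), Lef1 (-1.03 ± 0.13) and Etv4 also fell. Otx2 (-0.06 ± 0.05) and Fgf5 (-0.04 ± 0.12) overlapped between days. The exception was Car4, a carbonic anhydrase, with 10.9, 9.83 and 10.0 TPM at day 0 and 47.6, 51.9 and 52.4 TPM at day 4 (2.20 ± 0.08). Among 20 FGF ligands, receptors and ERK feedback genes, 6 were downregulated and none upregulated (median -0.40). Etv4, Fgf5 and Fgf15 belong to both lists. The genes were Etv4, Spry4, the ligands Fgf17 (-2.24 ± 0.08) and Fgf15, the immediate-early gene Egr1 (-1.76 ± 0.08) and Spry2 (-1.06 ± 0.07). Fgf4 (-0.61 ± 0.06), Dusp6 (-0.55 ± 0.06) and Etv5 (-0.38 ± 0.11) did not reach the fold threshold. The receptors Fgfr1 (0.20 ± 0.08) and Fgfr2 (0.57 ± 0.09) had positive differences within it. Of 15 genes listed for DNA methylation and demethylation, not all of them enzymes, 4 were downregulated (5 with median of ratios scaling) and none upregulated. They were Dnmt3b, Dnmt3a, the catalytically inactive partner Dnmt3l (-1.13 ± 0.03) and Mbd3 (-1.15 ± 0.04). The maintenance pair Dnmt1 (-0.52 ± 0.09) and Uhrf1 (-0.60 ± 0.09) and the dioxygenases Tet1 (-0.44 ± 0.17) and Tet2 (-0.36 ± 0.17) were not called.

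Signalling genes tied to LIF changed in both directions. Of 13 genes of the LIF receptor and STAT3 pathway, 4 were upregulated and 3 downregulated (1 and 4 with median of ratios scaling), with a median of -0.23. Targets and feedback genes fell: Socs3 had 48.8, 47.7 and 45.0 TPM at day 0 and 21.3, 22.1 and 22.0 TPM at day 4 (log2 fold change -1.08 ± 0.06, adjusted p = 3.4e-12), Junb -1.18 ± 0.05 and Bcl3 -1.92 ± 0.07. The kinase Jak2 rose from 2.64, 2.44 and 2.55 to 9.58, 9.53 and 9.69 TPM (1.58 ± 0.08). The rises of Jak1 (0.99 ± 0.09), the gp130 receptor Il6st (0.98 ± 0.11) and Lif itself (0.85 ± 0.14) were called only without median of ratios scaling. Stat3 (-0.73 ± 0.08) missed the fold threshold, and Lifr (0.16 ± 0.15) overlapped between days.

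In the TGF-beta families, 6 of 20 genes were downregulated and 3 upregulated, and the median of 0.01 became -0.13 with median of ratios scaling. Id1, a target of BMP and SMAD1, had 126, 131 and 135 TPM at day 0 and 29.1, 32.0 and 31.1 TPM at day 4 (log2 fold change -2.05 ± 0.06, adjusted p = 4.1e-16), and Id3 fell as well (-1.43 ± 0.06). Lefty1, a target and inhibitor of Nodal, had 139.6, 145 and 134 TPM at day 0 and 47.0, 42.9 and 41.0 TPM at day 4 (-1.66 ± 0.05), and Inhbb (-1.50 ± 0.07), Nodal and its co-receptor Tdgf1 were lower too. By contrast, the ligands Bmp7 (1.66 ± 0.07) and Bmp2 (1.25 ± 0.12) and the convertase Furin (1.42 ± 0.14) were higher. Bmp4 (-0.08 ± 0.14) and Gdf3 (0.01 ± 0.04) overlapped between days. Of 22 Wnt genes, 4 were upregulated and 3 downregulated, with a median of 0.09 that became -0.05 with median of ratios scaling. The secreted inhibitor Dkk1 (1.71 ± 0.11) and the receptor Fzd1 (1.02 ± 0.09, lost with the length trend removed) rose, and Sp5 (-1.37 ± 0.09), Wnt8a (-1.06 ± 0.08) and Lef1 fell. The calls of Fzd2 (0.95 ± 0.07) and Wnt6 (0.94 ± 0.13) were lost with that scaling. Axin2, the usual readout of beta-catenin, had 5.22, 5.26 and 5.46 TPM at day 0 and 5.78, 5.67 and 5.81 TPM at day 4 (0.10 ± 0.09).

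Lineage markers gave no single direction. Of 18 neural genes tested (7 others, Neurog2 and Dcx among them, were below the filter), 3 were upregulated and 4 downregulated, with a median of -0.01. Neuronal tubulin Tubb3 had 63.0, 59.6 and 55.9 TPM at day 0 and 17.1, 12.8 and 15.5 TPM at day 4 (log2 fold change -1.91 ± 0.07, adjusted p = 1.1e-14), and Stmn2 (-1.05 ± 0.04), Neurod1 (-1.29 ± 0.08) and Elavl3 (-0.93 ± 0.06) fell with it. Ncam1 (1.40 ± 0.12) and Sox21 (0.97 ± 0.09, lost with the length trend removed) rose, as did Elavl4 (0.94 ± 0.09, a call lost with median of ratios scaling), whereas the progenitor genes Pax6 (0.61 ± 0.09), Sox1 (0.76 ± 0.08) and Nes (-0.01 ± 0.13) were not called, although Sox1 was with 0.1 added (1.27). Of 13 genes of neural crest and placodes, 3 were upregulated and 2 downregulated (median 0.29). The former were Ets1 (1.31 ± 0.11), Snai2 (1.15 ± 0.09) and Msx2 (0.89 ± 0.07, lost with median of ratios scaling), and the latter Krt17 (-1.84 ± 0.08) and Foxd3. In the surface ectoderm list, 1 of 13 genes was called (median 0.18), the simple-epithelium keratin Krt7, with 2.37 ± 0.46 TPM at day 0 and 19.7 ± 1.42 TPM at day 4 (2.63 ± 0.15, SD, n = 3).

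Of 32 markers of primitive and visceral endoderm, 24 were tested. Of these, 10 were upregulated (8 with median of ratios scaling) and none was downregulated, with a median of 0.77. A marker near 0 at day 0 could pass the filter mainly by being higher at day 4, so direction and median were in part set in advance. With no filter, 10 were upregulated, 0 were downregulated and the median was 0.52. The proteoglycan Srgn had 0.459, 0.691 and 0.597 TPM at day 0 and 9.33, 7.98 and 11.1 TPM at day 4 (log2 fold change 2.72 ± 0.15, adjusted p = 3.5e-12). The endocytic adaptor Dab2 (1.96 ± 0.13), its cargo receptor Cubn (1.79 ± 0.15), the basement membrane collagens Col4a1 (1.52 ± 0.11) and Col4a2 (1.77 ± 0.10), Plat (1.31 ± 0.07), Thbd (1.15 ± 0.09) and Sparc (1.11 ± 0.06) were higher. Transcription factors that define this lineage were scarce. Gata6 reached 1.56, 1.17 and 1.71 TPM, Gata4 1.20, 1.63 and 1.56 TPM (0.83 ± 0.13) and Sox17 0.988, 1.02 and 1.46 TPM (0.79 ± 0.11). The latter 2 were not called with 1 added to TPM but were with 0.1 added (1.69 for Gata4 and 1.87 for Sox17). Foxa2, Afp and Ttr were below the filter. Markers of the primitive streak and early mesoderm were called in 5 of 19 cases (median 0.01, or -0.04 with median of ratios scaling). The upregulated ones were Flt1 (1.16 ± 0.09) and Osr1 (0.86 ± 0.09, lost with median of ratios scaling), and the downregulated ones T, Etv2 (-1.28 ± 0.12) and Mixl1 (-0.87 ± 0.08). Among 13 trophoblast markers, 4 were upregulated (4, and 1 downregulated, with median of ratios scaling), with a median of 0.57 (0.36 with no filter). They were Igf2, Esx1 (3.00 ± 0.10), Krt7 and Gata3 (1.49 ± 0.11), whereas Cdx2 (-0.30 ± 0.08) was not called and Elf5, Tpbpa and Prl3d1 were below the filter. None of 6 endothelial and blood markers was called (median 0.00), Pecam1 (0.56 ± 0.07) and Kdr (-0.01 ± 0.08) included.

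Contractile and mesenchymal genes formed one of the clearest groups. Of 28 genes, 15 were upregulated and 1 downregulated (14 and 1 with median of ratios scaling), with a median of 0.94. Besides the actins, the smooth muscle protein transgelin Tagln had 109, 115 and 105 TPM at day 0 and 352, 377 and 365 TPM at day 4 (log2 fold change 1.72 ± 0.05, adjusted p = 3.2e-16), the regulatory myosin light chain Myl9 had 7.12, 8.40 and 8.04 TPM at day 0 and 36.1, 36.4 and 38.8 TPM at day 4 (2.11 ± 0.06) and caldesmon Cald1 had 42.2, 39.1 and 36.3 TPM at day 0 and 129.7, 130.4 and 135 TPM at day 4 (1.73 ± 0.08). All were separated between days in every library. Tpm1 (1.32 ± 0.04), the calponins Cnn1 (1.34 ± 0.10) and Cnn2 (0.89 ± 0.06), vimentin Vim (1.00 ± 0.06), Anxa1 (1.52 ± 0.04), Ccn1 (1.36 ± 0.07), Thbs1 (1.19 ± 0.15) and the mesenchymal transcription factors Zeb1 (1.64 ± 0.13), Snai2 and Twist1 (1.00 ± 0.10, lost with the length trend removed) rose as well. Snai1 (0.02 ± 0.08) and Flna (0.27 ± 0.11) overlapped between days, and the surface glycoprotein Thy1 fell (-1.44 ± 0.13).

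The CArG box, the site of serum response factor, is a known element of many contractile genes, and the windows that hold it are shown for that reason. It was found in 3 of 23 windows of the 19 matched genes of this list (13.0%) and in 535 of all 32851 windows (1.63%). These were the windows of Acta1 (chr8:123894726-123895025, minus strand), Myl9 (chr2:156775214-156775513, plus strand) and Cnn2 (chr10:79988350-79988649, plus strand), starting 73, 161 and 56 bases before the start. Capitals mark the box:
Acta1: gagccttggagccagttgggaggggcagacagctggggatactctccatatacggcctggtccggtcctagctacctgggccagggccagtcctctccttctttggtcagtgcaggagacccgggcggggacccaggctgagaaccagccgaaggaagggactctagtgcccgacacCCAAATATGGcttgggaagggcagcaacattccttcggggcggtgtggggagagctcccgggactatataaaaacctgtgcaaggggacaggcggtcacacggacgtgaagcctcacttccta
Myl9: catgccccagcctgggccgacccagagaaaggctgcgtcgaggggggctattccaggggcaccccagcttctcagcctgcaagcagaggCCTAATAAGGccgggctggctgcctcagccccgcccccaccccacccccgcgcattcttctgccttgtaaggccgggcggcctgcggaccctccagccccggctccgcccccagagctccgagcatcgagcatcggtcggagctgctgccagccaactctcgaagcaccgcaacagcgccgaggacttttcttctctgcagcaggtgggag
Cnn2: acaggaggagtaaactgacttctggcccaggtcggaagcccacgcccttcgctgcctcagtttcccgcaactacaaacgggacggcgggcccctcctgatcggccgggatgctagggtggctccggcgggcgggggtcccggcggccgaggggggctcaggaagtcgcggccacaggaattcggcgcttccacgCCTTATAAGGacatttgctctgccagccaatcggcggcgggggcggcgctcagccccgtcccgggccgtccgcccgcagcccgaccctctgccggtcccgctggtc
All 3 genes rose, Cnn2 not past the fold threshold with median of ratios scaling. No match says only that the letters are not in this window.

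Epithelial adhesion genes were called about as often as all genes, in 3 of 18 cases beside 15.6%. Of these, 1 was upregulated, the claudin Cldn3 (1.10 ± 0.09), and 2 were downregulated, the epithelial splicing regulators Esrp1 (-0.86 ± 0.08) and Esrp2 (-0.92 ± 0.09), with a median of -0.20. E-cadherin Cdh1 had 169.6, 154 and 146 TPM at day 0 and 106, 99.6 and 113 TPM at day 4 (-0.55 ± 0.11), lower at day 4 in every library and under the fold threshold, and Epcam had -0.25 ± 0.03. Genes of the extracellular matrix were upregulated in 15 of 27 cases with a median of 1.03, and none was downregulated. The same counts were found with median of ratios scaling. Fibrillar collagens Col3a1 (1.27, 1.35 and 0.566 TPM at day 0 and 14.9, 12.5 and 17.9 TPM at day 4, 2.98 ± 0.20) and Col1a2 (10.2, 9.92 and 7.73 TPM at day 0 and 54.5, 49.6 and 55.4 TPM at day 4, 2.41 ± 0.10) changed most within this list, which does not hold Bgn, Tnc or Postn. The prolyl hydroxylase P4ha1 (2.28 ± 0.07) and the collagen chaperone Serpinh1 (1.52 ± 0.05), which act on collagen in the endoplasmic reticulum, rose with them, while fibronectin Fn1 (0.66 ± 0.09) and laminin Lamc1 (0.05 ± 0.10) were not called.

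Fibroblast markers were measured as a sign of other cells, although the same genes belong to mesenchyme made by ESCs. Of 9 tested, 7 were upregulated and 1 downregulated (median 1.60, or 1.25 with no filter). The summed level of the list was 41.0 to 52.2 TPM at day 0 and 209 to 228 TPM at day 4. Mmp2 (2.45 ± 0.07), Pdgfrb (1.15 ± 0.07) and decorin Dcn (1.36 ± 0.09) rose beside the collagens and Postn. Thy1 fell, and Fap, Lum and Col6a3, which fibroblasts express, were below the filter. The part of any fibroblasts in the matrix result was not tested.

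Germ cell genes were a further group with calls in one direction. Of 26, 15 were upregulated (13 with median of ratios scaling) and none was downregulated, with a median of 0.96. Dazl, needed for germ cell development, had 5.49, 5.20 and 5.81 TPM at day 0 and 89.3, 89.1 and 86.6 TPM at day 4 (log2 fold change 3.78 ± 0.10, adjusted p = 6.4e-17). Asz1 went from 0.0449, 0.0562 and 0.0686 to 1.47, 1.72 and 1.57 TPM (1.29 ± 0.09), and Mov10l1, another piRNA pathway gene, had 1.88, 2.17 and 2.89 TPM at day 0 and 11.7, 11.7 and 11.0 TPM at day 4 (1.92 ± 0.11). The stem cell factor receptor Kit (1.41 ± 0.09), Dmrt1 (1.31 ± 0.07), the meiotic gene Hormad1 (1.16 ± 0.06), Tex101 (1.30 ± 0.10), Slc25a31 (1.14 ± 0.09), Stk31 (1.01 ± 0.10, lost with the length trend removed) and the homeobox genes Rhox5 (1.62 ± 0.05), Rhox6 (2.81 ± 0.09) and Rhox9 (2.66 ± 0.11) rose with Stra8. Ddx4, or Vasa (0.91 ± 0.06), and Rec8 (0.85 ± 0.08) were called only without median of ratios scaling. Prdm1, which specifies primordial germ cells, had 7.58, 6.67 and 6.76 TPM at day 0 and 8.00, 6.63 and 7.17 TPM at day 4 (0.04 ± 0.09), and Nanos3 had 0.61 ± 0.11, both not called. Of 14 genes of the 2-cell stage, 9 were upregulated under both scalings and none was downregulated (median 1.06). Zscan4f had 7.37 ± 0.304 TPM at day 0 and 21.8 ± 2.97 TPM at day 4 (SD, n = 3, 1.43 ± 0.10), and Tmem92 (1.72 ± 0.10) and Sp110 (1.54 ± 0.17) rose most. Members of the Zscan4, Usp17l and Rhox clusters are near-identical copies, and levels of single copies are uncertain.

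Imprinted genes gave some of the largest rises. Of 26 tested, 10 were upregulated and 1 downregulated, with a median of 0.51 (0.36 with no filter). With median of ratios scaling 6 were downregulated. The maternally expressed RNA H19 had 37.9, 37.4 and 34.7 TPM at day 0 and 465, 501 and 525 TPM at day 4 (log2 fold change 3.72 ± 0.07, adjusted p = 9.0e-19) and its paternally expressed neighbour Igf2 had 34.4, 30.4 and 28.2 TPM at day 0 and 422, 428 and 463 TPM at day 4 (log2 fold change 3.78 ± 0.08, adjusted p = 4.3e-18). Both belong to one domain (chr7:142575529-142578143 and chr7:142650766-142666816 on GRCm38), and both were higher in every day 4 library. Dlk1 had 4.14, 4.23 and 4.31 TPM at day 0 and 59.5, 66.5 and 65.6 TPM at day 4, yet Meg3 (-0.12 ± 0.06) and Rian (-0.83 ± 0.08), the RNAs made from the other allele of its domain, were not called. Peg3 (2.67 ± 0.12), Sgce (1.69 ± 0.05), Ndn (1.17 ± 0.06), Peg12 (1.12 ± 0.08), Slc38a4 (1.10 ± 0.08) and Plagl1 (0.99 ± 0.12) rose, and Phlda2, a growth restrainer of the placenta, fell from 132, 139 and 139.8 to 28.5, 31.8 and 28.0 TPM (-2.18 ± 0.08).

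Among 32 subunits of Polycomb repressive complexes (PRC), 5 were downregulated and 2 upregulated (7 and 2 with median of ratios scaling), with a median of 0.28. Epop, which joins PRC2 to elongin BC, had 179, 173 and 170.2 TPM at day 0 and 48.6, 43.8 and 46.6 TPM at day 4 (log2 fold change -1.89 ± 0.08, adjusted p = 4.6e-14), and Phc1 of PRC1 had 275, 261 and 238 TPM at day 0 and 80.4, 75.8 and 76.6 TPM at day 4 (-1.72 ± 0.07). The PRC2 cofactor Jarid2 fell as well (-0.98 ± 0.11), with L3mbtl2 (-1.23 ± 0.06) and Pcgf2 (-0.87 ± 0.08). Bmi1, or Pcgf4 (1.42 ± 0.20), and Pcgf5 (1.09 ± 0.07) rose. Of 14 Sox genes, 4 were upregulated (median 0.54, 3 with median of ratios scaling), among them Sox15 (17.7, 17.4 and 17.5 TPM at day 0 and 85.5, 84.2 and 84.0 TPM at day 4, 2.21 ± 0.05) and Sox6 (1.55 ± 0.13). Of 25 Fox genes, 6 were downregulated (median 0.06, or -0.08 with that scaling), among them Foxn4 (-1.63 ± 0.09) and Foxp1 (-1.28 ± 0.12). Of 22 Klf and Sp genes (median -0.06), 1 was upregulated, Sp4 (1.21 ± 0.16), and 3 were downregulated, Klf12 (-1.44 ± 0.09), Sp5 and Klf5. The Gata, Tbx and Tead families had 3 of 14 upregulated (1 with median of ratios scaling, median 0.67). The Pax, Lhx, Dlx, Irx, Nkx and related homeobox families had 6 upregulated of 19 tested (4 with that scaling, median 0.49), led by Irx2 (1.69 ± 0.21). In these families 52 genes were listed. Among adhesion and keratin families, 2 of 8 claudins, 5 of 22 cadherins and protocadherins and 2 of 12 keratins were upregulated, and none, 1 and 2 were downregulated, with medians of 0.14, 0.08 and 0.22. These are 25%, 22.7% and 16.7% higher beside 10.7% of all genes tested, and 0%, 4.55% and 16.7% lower beside 4.82%. Listed were 24, 91 and 54 genes. In each family of this paragraph, a gene near 0 at day 0 could pass the filter mainly by being higher at day 4, which in part sets direction and median in advance.

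The cell cycle lists held opposite changes within one pathway. Of 26 cyclins, CDK inhibitors and Myc family genes, 5 rose and 5 fell (median 0.28). Myc had 33.4, 33.8 and 29.6 TPM at day 0 and 4.58, 4.34 and 5.15 TPM at day 4 (log2 fold change -2.55 ± 0.07, adjusted p = 2.2e-16), Mycn 103, 98.1 and 95.0 TPM at day 0 and 43.4, 35.0 and 38.5 TPM at day 4 (-1.32 ± 0.08) and cyclin D1, Ccnd1, 58.5, 52.9 and 48.8 TPM at day 0 and 13.0, 12.3 and 13.0 TPM at day 4 (-1.98 ± 0.08). Cyclin E1, Ccne1 (-1.27 ± 0.05), and E2f2 (-1.17 ± 0.10) fell too. Cyclin D2, Ccnd2 (1.55 ± 0.16), the inhibitors Cdkn2b (1.71 ± 0.07) and Cdkn2a (1.29 ± 0.06), Mxd4 (1.24 ± 0.08) and the retinoblastoma gene Rb1 (1.13 ± 0.09) rose. Of replication and mitosis genes 2 of 30, Top2a (0.92 ± 0.09) and Mki67 (0.92 ± 0.15), were upregulated, neither with median of ratios scaling (median -0.03), and Pcna had -0.15 ± 0.04. Of 24 p53 pathway genes (median 0.35), 2 were upregulated, Trp53inp1 (1.33 ± 0.13) and Pmaip1 or Noxa (1.06 ± 0.06). With median of ratios scaling 2 were also downregulated, Trp53 (-0.79 ± 0.05 as deposited) and Sesn2 (-0.84 ± 0.08). Cdkn1a, which encodes p21, had 44.2, 42.2 and 39.2 TPM at day 0 and 70.8, 68.3 and 73.4 TPM at day 4 (0.75 ± 0.05).

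Few ribosomal protein genes were called. Of 51 genes of the large subunit, 1 was called, the testis-enriched paralog Rpl39l (33.7, 34.7 and 41.5 TPM at day 0 and 143, 147 and 138 TPM at day 4, log2 fold change 1.94 ± 0.08, adjusted p = 1.1e-13). None of 33 of the small subunit was called by limma, and the medians were -0.01 and 0.03 (-0.17 and -0.12 with median of ratios scaling). Of 36 factors of late pre-60S maturation, 4 were downregulated (7 with median of ratios scaling) and none upregulated (median -0.23). They were Nle1 (-1.11 ± 0.05), Rrs1 (-1.04 ± 0.05), Wdr74 (-0.96 ± 0.04) and Bop1 (-0.90 ± 0.07). Of 35 small subunit and common nucleolar factors, 4 were downregulated (8 with that scaling, median -0.29). They were Nop10 (-1.19 ± 0.06), Noc4l (-1.05 ± 0.05), Tcof1 (-0.95 ± 0.09) and Gar1 (-0.88 ± 0.06). Rsl24d1, a member of the first of these lists, was not among the calls.

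The ATF4 pathway, which turns on amino acid transport and synthesis when amino acids are short or the endoplasmic reticulum is stressed, showed the highest share of falls among protein-coding lists. Of 22 tested genes, 12 were downregulated and 1 upregulated, with a median of -0.90. Atf4 had 172, 169.7 and 173 TPM at day 0 and 104, 79.4 and 84.2 TPM at day 4 (log2 fold change -0.94 ± 0.10, adjusted p = 3.8e-08). Its targets Chac1, a glutathione-degrading enzyme (23.6, 23.8 and 21.8 TPM at day 0 and 8.33, 4.09 and 5.59 TPM at day 4, -1.82 ± 0.19), and Trib3, a feedback inhibitor (27.0, 25.6 and 24.4 TPM at day 0 and 9.59, 5.36 and 6.57 TPM at day 4, -1.74 ± 0.17), fell more. So did Cth (-1.77 ± 0.07), Stc2 (-1.74 ± 0.11), the mitochondrial one-carbon enzymes Shmt2 (-1.26 ± 0.06) and Mthfd2 (-1.15 ± 0.09) and the transporter genes Slc7a5 (-1.13 ± 0.11), Slc3a2 (-1.09 ± 0.06) and Slc7a3 (-0.99 ± 0.10). Asns, asparagine synthetase, went the other way with 193, 177 and 183 TPM at day 0 and 476, 397 and 439.6 TPM at day 4 (log2 fold change 1.24 ± 0.07, adjusted p = 4.6e-12). Phgdh (-0.03 ± 0.05) and Atf3 (-0.27 ± 0.07) were not called.

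Windows of Chac1, Trib3 and Asns are shown because these 3 genes carry the same element and moved in opposite directions. The element TGATGNAA, found by ATF4 with C/EBP proteins, was in 9 of 24 windows of the 21 matched genes (37.5%) and in 1304 of all windows (3.97%), searched on both strands. It began 193 bases before the start of Chac1 (chr2:119350992-119351291, plus strand), 23 before that of Asns (chr6:7693160-7693459, minus strand) and 14 after that of Trib3 (chr2:152344011-152344310, minus strand). Capitals mark it, in the windows of Chac1 and Trib3 as the other strand gives it:
Chac1: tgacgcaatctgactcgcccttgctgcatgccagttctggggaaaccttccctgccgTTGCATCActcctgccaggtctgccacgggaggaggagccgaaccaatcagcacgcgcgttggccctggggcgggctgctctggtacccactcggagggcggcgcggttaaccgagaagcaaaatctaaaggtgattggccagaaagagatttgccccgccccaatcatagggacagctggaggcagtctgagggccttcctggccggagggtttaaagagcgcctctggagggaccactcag
Trib3: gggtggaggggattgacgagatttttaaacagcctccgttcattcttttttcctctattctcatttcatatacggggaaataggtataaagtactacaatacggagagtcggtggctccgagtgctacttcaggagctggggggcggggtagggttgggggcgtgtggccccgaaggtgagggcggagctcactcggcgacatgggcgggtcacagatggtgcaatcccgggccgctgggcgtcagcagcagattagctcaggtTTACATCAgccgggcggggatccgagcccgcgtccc
Asns: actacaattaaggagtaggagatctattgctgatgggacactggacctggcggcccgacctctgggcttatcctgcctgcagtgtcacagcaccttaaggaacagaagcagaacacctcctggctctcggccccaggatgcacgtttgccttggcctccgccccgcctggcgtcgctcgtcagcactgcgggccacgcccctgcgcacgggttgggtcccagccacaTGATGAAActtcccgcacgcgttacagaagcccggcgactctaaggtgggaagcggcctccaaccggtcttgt
Of the other 6 genes with a match, Nupr1 fell (-1.10 ± 0.12), Atf3, Pck2 (-0.33 ± 0.11) and Vldlr (0.06 ± 0.09) were not called, and Fgf21 and Slc7a11 were below the filter. The list was written with earlier results of these data known, and its share of windows is a description.

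Glycolysis genes were called about as often as all genes. Of 24, 3 were upregulated (12.5%) and 1 downregulated (4.17%), beside 10.7% and 4.82% of all genes tested (median 0.27). Lactate dehydrogenase B, Ldhb, had 173, 177 and 177 TPM at day 0 and 592, 623 and 588 TPM at day 4 (log2 fold change 1.77 ± 0.04, adjusted p = 7.3e-18), whereas Ldha had -0.69 ± 0.06 and did not pass the fold threshold. Hexokinase 1, Hk1 (1.21 ± 0.09), and Bnip3 (0.98 ± 0.10, lost with median of ratios scaling) rose and Pgam1 fell (-0.91 ± 0.04). Of 15 transcripts of the mitochondrial genome, 1 was called, the rRNA mt-Rnr1 (-1.21 ± 0.17), and the median was 0.16. Levels of mt-Co1 were 14689, 13274 and 13626 TPM at day 0 and 22751, 23197 and 25465 TPM at day 4 (0.78 ± 0.08).

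**Figure D3:**
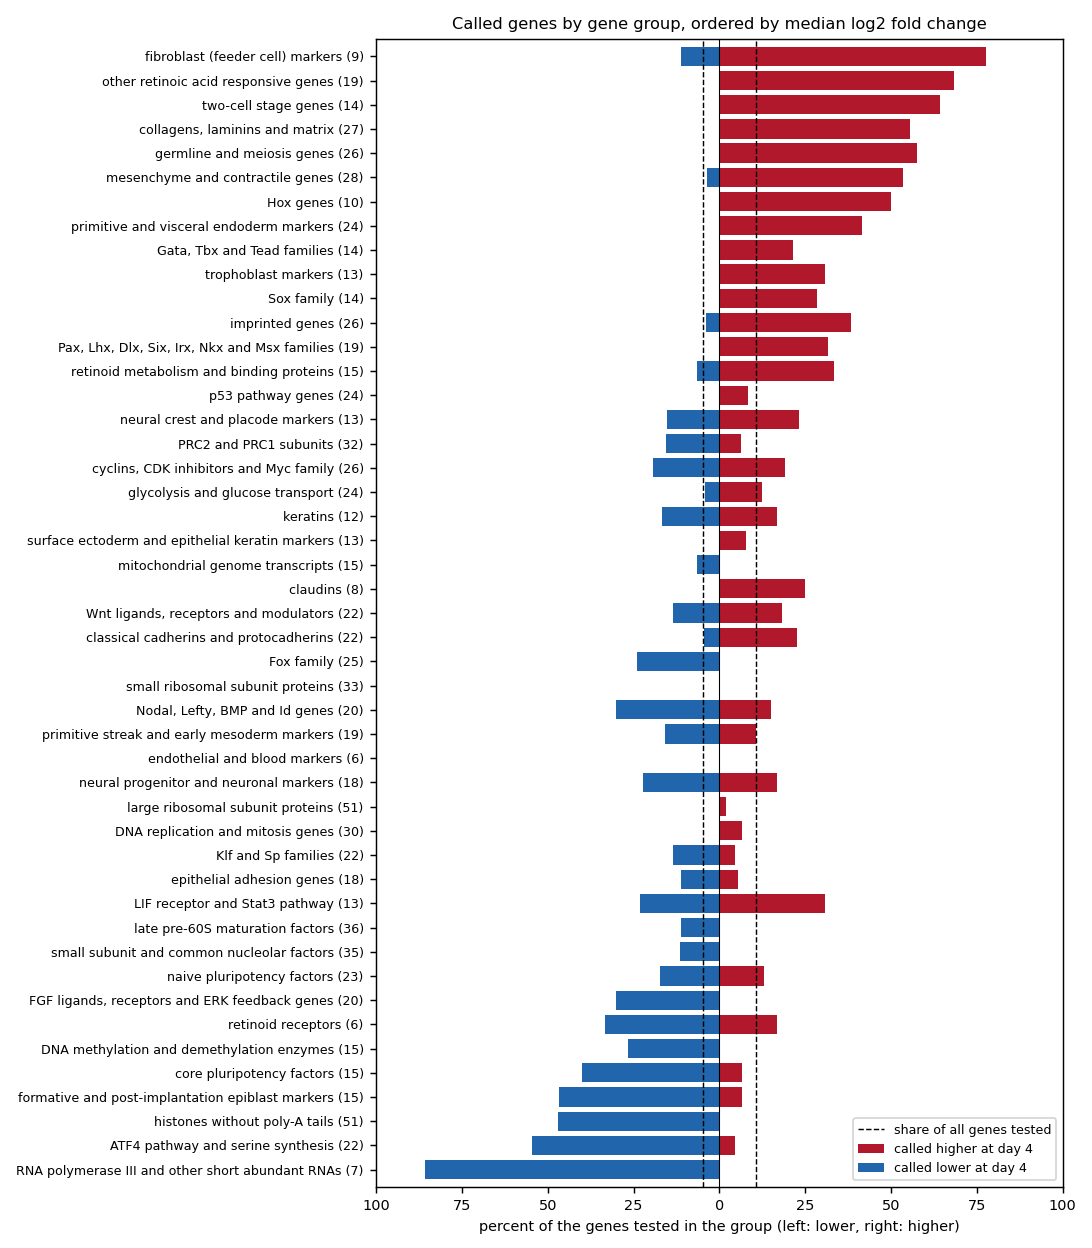
Percent of the genes tested in each of 47 gene groups that were called higher (red, to the right) or lower (blue, to the left) at day 4 in si-CTL cells with rescue, ordered by median log2 fold change, with the number tested in brackets and dashed lines at the shares of all genes (10.7% and 4.82%). RA-responsive, 2-cell stage, matrix, germline and contractile groups extend to the right, and formative, histone, ATF4 and short RNA groups to the left.

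Several classes of RNA that lack poly-A tails held more falls than rises at day 4 with rescue. Of 51 replication-dependent histone genes, 24 were downregulated and none upregulated, with a median of -0.85. With the length trend removed 2 were called (median -0.60), and with no rescue the median was -0.16. Short RNAs made by RNA polymerase III fell further. Rn7s1, the 7SL RNA of the signal recognition particle, had 207, 531 and 236 TPM at day 0 and 22.0, 49.8 and 5.93 TPM at day 4 (log2 fold change -3.89 ± 0.90, adjusted p = 7.4e-04), Rmrp had 51.9, 112 and 45.5 TPM at day 0 and 5.08, 8.42 and 0.523 TPM at day 4 (-3.88 ± 0.86) and Rn7sk, the 7SK RNA, had 63.8, 140.1 and 69.8 TPM at day 0 and 21.1, 26.1 and 11.8 TPM at day 4 (-2.13 ± 0.64). In all, 6 of 7 were called lower, but the call of Rn7sk was lost without any one of the day 4 replicates 1 and 3 and the day 0 replicates 2 and 3. Leaving out day 4 replicate 3 or day 0 replicate 2 left 3 of 7 called, and every other single library left 4 or 5, with the Y RNA gene Rny1 among those lost without any library but day 4 replicate 1. Their summed level was 389 to 943 TPM in the day 0 libraries and at most 96.8 TPM at day 4. With no rescue it was 69.3 to 196 TPM at day 0 and 78.8 to 845 TPM at day 4, with a median change of 1.60. Of 57 small nuclear RNAs, 9 were downregulated (15.8%) and none upregulated, and of 123 small nucleolar RNAs, 10 (8.13%) and 1 (0.813%). Of 49 miRNA genes, 1 was downregulated (2.04%) and 4 were upregulated (8.16%), with a median of 0.58. Among all genes tested 4.82% were downregulated and 10.7% upregulated, so miRNA genes were called no more often than genes in general. Levels of these RNAs depend on how a library was made. The sources differ on whether total or poly-A RNA was used, and the part of the library preparation in these differences was not tested.

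The same 4 days were then compared in si-CTL cells that had no rescue, to ask whether cells given doxycycline changed in the same way. With no rescue, 2469 genes (15% of those tested) were called, 1114 upregulated (6.77%) and 1355 downregulated (8.24%). This split turned round with the other scalings, to 1391 upregulated and 975 downregulated genes with median of ratios scaling and 1341 and 971 with the length trend removed. As deposited, of the genes upregulated with rescue, 974 were upregulated in both (55.1% of the list with rescue and 87.4% of that without), and of the genes downregulated with rescue, 637 were (80.4% and 47.0%). With median of ratios scaling these shares were 73.2% and 71.8% for 999 shared upregulated genes and 63.2% and 69.5% for 678 shared downregulated genes. With the length trend removed they were 76.5% and 72.9% for 977 genes and 67.2% and 69.3% for 673 genes. As deposited, no gene was upregulated with and downregulated without rescue, and 2 were the other way round. Across the 16447 genes, which are not independent replicates, Pearson's r of the log2 changes was 0.76, and 0.79 with the length trend removed. With and without rescue, the log2 changes were -1.19 and -1.10 for Pou5f1, 1.03 and 0.79 for Nanog, -3.90 and -3.84 for Etv4, -2.39 and -2.56 for Rarg and 3.78 and 3.40 for Dazl. Nanog was under the fold threshold with no rescue, and its difference in change was under that threshold too (0.23 ± 0.05, adjusted p = 0.0021). Hsp90aa1, one of the largest rises in TPM with rescue, had 0.86 with rescue and 0.07 without. Its difference (0.80 ± 0.12, limma, adjusted p = 5.9e-04) was also under the fold threshold. Some lists had more calls with no rescue as deposited: 10 core pluripotency factors were downregulated there (median -1.10) beside 6 with rescue, and 11 DNA methylation and demethylation genes (median -1.03) beside 4 (median -0.55). Among all genes tested the downregulated share was also higher there, 8.24% beside 4.82% with rescue. The difference itself was called for 1 and 2 genes of these lists, for 1 and 0 with median of ratios scaling and for 0 and 1 with the length trend removed.

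A difference in change (the interaction of day and rescue) was called for 392 genes (2.38% of those tested), 360 with a more positive change with rescue (2.19%) and 32 with a more negative one (0.195%). The number and the split rested on the scaling: 37 (0.225%) and 50 (0.304%) genes were called with median of ratios scaling and 39 (0.242%) and 22 (0.136%) with the length trend removed. Under all 3, 30 genes were called. Among the 2559 genes called at day 4 with rescue, 105 (4.10%) had a called difference. In the RA-responsive list it was 1 gene, Nrip1 (0.89 ± 0.18, adjusted p = 0.0011), lost with either other scaling. In the lists of retinoid receptors, retinoid metabolism and Hox genes none was called by limma as deposited or with either other scaling. Rara (0.69 ± 0.16, adjusted p = 0.0027) and the retinol dehydrogenase Rdh11 (0.50 ± 0.10, adjusted p = 0.001) passed the adjusted p and not the fold threshold. Of the core and naive pluripotency lists, Trim71 (1.17 ± 0.24, adjusted p = 0.0012), Klf5 (0.91 ± 0.20, adjusted p = 0.0016), Tfcp2l1 (0.88 ± 0.20, adjusted p = 0.0022) and Tet2 (0.97 ± 0.23, adjusted p = 0.0029) were called. Of these, Trim71 was kept with median of ratios scaling and none with the length trend removed. Among the largest rises and falls at day 4, n-R5s100 (-6.39 ± 1.58, adjusted p = 0.0035), Brms1l (-1.50 ± 0.43, adjusted p = 0.0082) and CT010467.1 (-3.18 ± 0.91, adjusted p = 0.0085) had a called difference, kept in each case with median of ratios scaling. With the length trend removed n-R5s100 was still called (-5.99, limma, adjusted p = 0.0059). The sizes of the others were then -1.53 for Brms1l (adjusted p = 0.0125) and -3.37 for CT010467.1 (adjusted p = 0.011), no smaller than before but with adjusted p above 0.01. Leaving out 1 library moved the count by over 1.5 times in 3 cases: it was 158 without replicate 1 of day 0 with no rescue, 212 without replicate 3 of day 0 with rescue and 603 without replicate 1 of day 0 with rescue.

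**Figure D4:**
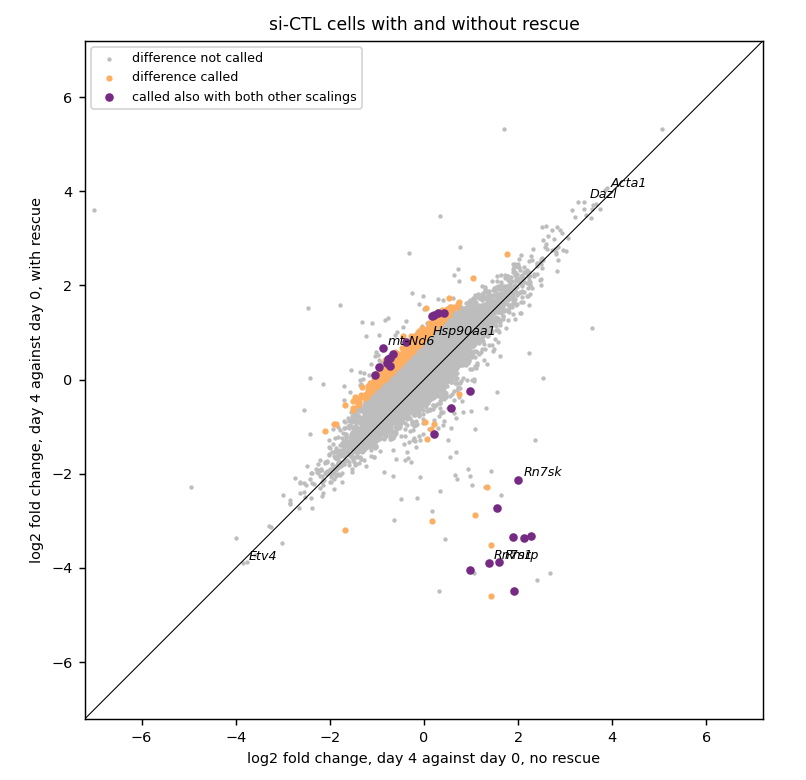
Log2 fold change of day 4 against day 0 in si-CTL cells with rescue (y axis) and with no rescue (x axis), with the diagonal of equal change. Each point is 1 gene tested, and genes at 0 in all 3 libraries of any of the groups shown are left out. Genes whose difference was called as deposited are purple if also called with both other scalings and orange if not. Most genes lie along the diagonal, and Rn7s1, Rmrp and Rn7sk lie far below it on the right.

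**Figure D5:**
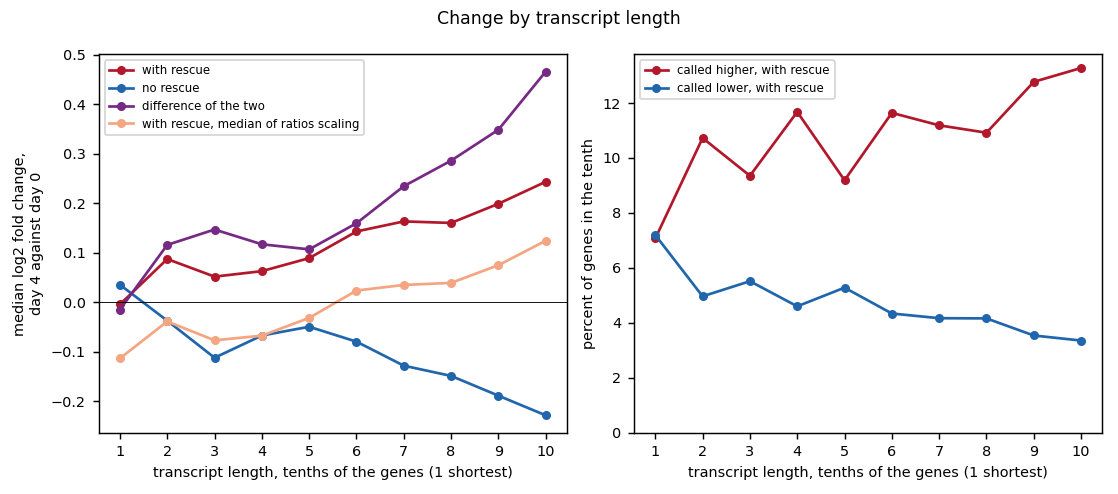
Left, median log2 fold change of day 4 against day 0 in 10 bins of transcript length (1613 genes in the shortest) with rescue, with no rescue, for their difference and with rescue after median of ratios scaling. Right, percent of genes called higher or lower with rescue in each bin, where the share called higher runs from 7.07% in the shortest to 13.3% in the longest bin.

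Transcript length moved with these results. From the shortest to the longest of 10 bins, the median change went from 0.00 to 0.24 with rescue, from 0.04 to -0.23 with no rescue and from -0.01 to 0.47 for their difference. The share of upregulated genes with rescue went from 7.07 to 13.3% and that of downregulated genes from 7.19 to 3.35%. Single libraries differed as well. For each, the median deviation from the mean of all libraries in the shortest bin was subtracted from that in the longest bin. The result was -0.10, -0.15 and -0.23 on the log2 scale in the 3 day 0 libraries with rescue and 0.13, 0.05 and 0.13 at day 4. With no rescue it was 0.22, 0.05 and 0.00 at day 0 and -0.18, -0.19 and -0.16 at day 4. The order of the days was thus opposite in the 2 kinds of cells. With the trend removed, 2025 of the 2559 calls were kept in the same direction and 51 of the 392 differences between the kinds of cells, and the cause of the trend was not tested.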

How the data were processed

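RNA of mouse CGR8-derived ESCs was sequenced in 24 libraries, 3 in each of 8 groups, of which 6 libraries are described. The deposited values are log2(TPM + 1) per gene, which the authors made with STAR, Salmon and tximport, with no read counts. The methods name GRCm38, while the submitters' processing notes name GRCh38 with STAR 2.7.8a and Salmon 1.4.0; mouse gene identifiers matched the mouse annotation (52259 of 54242). The sources also differ on poly-A or total RNA, on 48 or 72 h of siRNA and on the medium. TPM are shares, so a change in abundant RNAs moves all others.

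Groups came from the sample titles. Genes whose log2(TPM + 1) averaged 0.5 or more across the 24 libraries were fitted with limma 3.58.1 in R 4.3.3, with a mean per group and an intensity trend in its empirical Bayes step. Tests were two-sided. A call needed an adjusted p (Benjamini-Hochberg) under 0.01 and more than 1.8-fold change. The contrasts were day 4 minus day 0 with rescue, the same with no rescue, and their difference. The fit was tested on simulated data.

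The members, gene lists and rules were chosen with earlier results of these data known. Named genes were Rsl24d1, the 15 protein-coding genes with the largest rise and fall that separated the days, list members led by size of change and by defining genes, the 5 largest differences between contrasts in each direction and the 5 largest changes in TPM in each direction. Ppbp and the gene families on chromosome X were chosen after their values were seen. Values of some list members are not reported here, although the counts and medians of the lists include them.

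Alternatives were another value added before the logarithm (0.1 or 2), no filter or a filter of 1.5, a fit of the compared groups alone, a block for the replicate number, scaling by median of ratios, a common sum over nuclear protein-coding genes, no fold threshold, leaving out each library and, added after the data were seen, removal of a smooth trend of log2 values with transcript length (16123 genes with a length). Promoter windows came from RefSeq (GRCm38.p6).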

Additional observations from a re-analysis of the deposited data

Results flagged for a closer look

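The change over 4 days differed with rescue from that with no rescue for 392 genes by the test of the difference itself (limma). The 5 most positive and 5 most negative of these, day 4 minus day 0 with rescue minus the same with no rescue on the log2 scale, are given here, with no explanation tested.

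More positive with rescue were mt-Nd6, a mitochondrial subunit of complex I (1.54), with 78.3 ± 4.74 TPM at day 0 and 125 ± 13.6 TPM at day 4 with rescue and 130.5 ± 17.5 TPM at day 0 and 70.8 ± 13.5 TPM at day 4 with no rescue (SD, n = 3). Likewise Gm10226 (1.48), the imprinted host RNA Snhg14 (1.38) and the mucin Muc2 (1.24) had more positive changes. Gm49286 was listed at 0 in all 3 day 4 libraries with no rescue, so that no fold is given (adjusted p = 2.3e-03).

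More negative with rescue were the 5S rRNA genes n-R5s100 (-6.39) and n-R5s193 (-6.02) and the Y RNA Rny1 (-5.59). The Y RNA Rny3 (adjusted p = 2.0e-03) and Gm10288 (adjusted p = 5.9e-04) were listed at 0 in all day 4 libraries with rescue. For n-R5s100 the levels were 4249.6 ± 1051 TPM at day 0 and 326 ± 336 TPM at day 4 with rescue and 612 ± 479 TPM at day 0 and 3921 ± 4580.0 TPM at day 4 with no rescue (SD, n = 3).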

How the results depend on the processing

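The counts of genes called were 2559 with rescue, 2469 with no rescue and 392 for their difference. With 0.1 added to TPM they were 3884, 3796 and 747, and with no fold threshold 9732, 10010 and 4866. The difference between the kinds of cells gave 235 genes with 2 added, 87 with median of ratios scaling and 61 with the length trend removed. The other planned settings kept all 3 counts within 1.5 times. Leaving out 1 library gave 2485 to 2640 genes with rescue, 2337 to 2581 with no rescue and 158 to 603 for the difference. Rsl24d1 stayed between -0.51 and -0.33 on the log2 scale and never passed the fold threshold.

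With a replicate block the counts were 2553, 2467 and 385, and Rsl24d1 had -0.36. Same-numbered libraries of both days deviated with r of -0.02, 0.10 and -0.04 with rescue and -0.09, 0.03 and -0.07 with no rescue. Not every library correlated best with its own number. These values show no pairing by number, but with 3 libraries a group they cannot settle whether the samples were paired.

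Among 321 genes named, 4604 of 4773 values under other settings kept their side of the thresholds, 131 lost a call, 38 gained one and none reversed. Calls lost by leaving out a single library were those of Hsp90aa1, Ifitm1, Mixl1, Pcgf2, Rn7sk, Snhg14, Rny1, n-R5s100, n-R5s193, Bop1, Gar1, Esrp1, Esrp2, Hoxb4, Klf5, Rbp4, Rec8, Gata6, Lif, Zfp703, Msx2, Osr1 and Cnn2. Of 1504 counts of genes called in the gene lists, 1322 stayed within 1.5 times and 182 moved, 94 of these with no fold threshold or 0.1 added. With 2 added, 33 calls were lost, mostly of genes at low level. The cause was not tested. Depth is unknown, so genes at 0 or near it cannot be bounded, and 3 libraries a group limit what the tests can show.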

Other observations

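Genes of the X chromosome were called higher more often than genes in general: of 587 tested, 108 (18.4%) were upregulated and 21 (3.58%) downregulated at day 4 with rescue, beside 10.7% and 4.82% of all genes, and with no rescue 11.9% of them were upregulated beside 6.77%. The genes were grouped after their values were seen, so no test was made. Members of X-linked reproductive clusters were among them. Of 16 tested Rhox genes, homeobox genes of germ cells and placenta, 13 were upregulated with a median log2 change of 1.20 (1.26 with no rescue), and all 6 tested genes of each of the ferritin-like Fthl17 and the lymphocyte-regulated Xlr clusters were, with medians of 1.44 and 1.28. Listed were 42 Rhox, 9 Fthl17 and 16 Xlr genes, and the rest were below the filter. A copy near 0 at day 0 could pass the filter mainly by being higher at day 4. Direction and median in these clusters were thus in part set in advance. With median of ratios scaling 12 Rhox, 4 Fthl17 and 5 Xlr genes were called, and with the length trend removed 12, 5 and 5. The proteoglycan genes Bgn (3.51 ± 0.08) and Gpc3 (2.16 ± 0.06), the placental homeobox gene Esx1 (3.00 ± 0.10) and Ott (2.66 ± 0.17) rose as well. Copies within these clusters are nearly identical, and values of single copies are uncertain.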
